A study of Mus musculus with 4 samples.

Results

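The Schlafen family was followed in liver cells of mice that lack polynucleotide phosphorylase (PNPase, gene Pnpt1), an RNA exonuclease, in hepatocytes. The members were chosen by name: every probe whose RefSeq accession maps to Slfn1, Slfn2, Slfn3, Slfn4, Slfn5, Slfn8 or Slfn9 was taken, which gave 7 probes, 1 for each of the 7 genes, out of 41174 probes and 16358 named genes on the array. HepKO mice carried Albumin-Cre, which is active in hepatocytes, and floxed Pnpt1 alleles (Albumin-Cre/wt Pnpt1 fl/fl). The WT mice (wildtype Pnpt1 fl/fl) carried the same floxed alleles without Cre, and all mice were C57BL/6J. A pair labelled male, aged 12.29 weeks (12.9 weeks in another label), and a pair labelled female, aged 4.29 weeks, each held 1 HepKO mouse and its WT match, and each pair was hybridised on 2 two-colour arrays with the dyes exchanged. RNA came from the washed cell pellet of a collagenase-perfused liver. No sort for hepatocytes is named in the labels, so RNA of other liver cells can be part of each sample.

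Schlafen proteins take their name from the German word for sleep, after the growth arrest that early members caused in T cells. In mice the short members (Slfn1 and Slfn2) consist of little more than the core domain shared by the family, the intermediate members (Slfn3 and Slfn4) carry an added linker domain, and the long members (Slfn5, Slfn8 and Slfn9) end in a helicase-like domain. Several members bind or cut transfer RNA, and interferon raises the transcripts of many of them in immune cells and fibroblasts.

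The long members lie side by side on chromosome 11, and the windows of 250 bases before their start sites are shown because the same interferon-type element was found in each. The sequences are RefSeq's, on build GRCm38.p6, and all 7 members matched an entry. Capitals mark GAAANNGAAA, the core of the interferon-stimulated response element, or its reverse complement.

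Slfn9, chr11:82991831-82992080, - strand: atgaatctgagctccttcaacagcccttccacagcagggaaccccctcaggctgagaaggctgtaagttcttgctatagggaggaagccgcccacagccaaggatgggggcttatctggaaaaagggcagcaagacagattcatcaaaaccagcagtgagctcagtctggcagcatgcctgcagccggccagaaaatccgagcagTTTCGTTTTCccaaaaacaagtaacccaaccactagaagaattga
Slfn8, chr11:83020811-83021060, - strand: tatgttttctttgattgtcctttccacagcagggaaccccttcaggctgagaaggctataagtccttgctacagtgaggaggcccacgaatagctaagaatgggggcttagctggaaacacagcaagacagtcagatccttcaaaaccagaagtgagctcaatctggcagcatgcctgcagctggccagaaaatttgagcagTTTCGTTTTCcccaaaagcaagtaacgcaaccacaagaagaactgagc
Slfn5, chr11:82951852-82952101, + strand: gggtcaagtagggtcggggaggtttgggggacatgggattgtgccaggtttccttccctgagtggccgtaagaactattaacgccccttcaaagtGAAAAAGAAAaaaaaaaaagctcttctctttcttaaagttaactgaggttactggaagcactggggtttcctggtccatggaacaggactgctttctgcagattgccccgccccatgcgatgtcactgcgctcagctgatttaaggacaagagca

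In these windows the element read GAAAACGAAA on the opposite strand in Slfn9, beginning 45 bases before the start site, and in Slfn8, beginning 48 bases before it. It read GAAAAAGAAA on the gene's own strand in Slfn5, 155 bases before the start site. On either strand, 3 of 7 Schlafen genes held the motif, against 3.46% of the 27025 genes with a window (2.98% of 32851 windows) and 11 of the 35 interferon-stimulated genes with an entry. Slfn8 and Slfn9 shared 79.8% of 258 aligned positions. A second Slfn8 start site lies nearby, and its window holds the same copy of the element. A match describes letters and not a bound site, and a missing match says only that these letters are not in the window.

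The short and intermediate members held no such core in their windows. They had another run in common, ACTTCCTGG, the longest run shared by Slfn1, Slfn2, Slfn3 and Slfn4, which contains on its opposite strand the GGAA core recognised by ETS-family factors. Capitals mark it in the 100 bases before each start site.

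Slfn1, chr11:83116720-83116819, + strand: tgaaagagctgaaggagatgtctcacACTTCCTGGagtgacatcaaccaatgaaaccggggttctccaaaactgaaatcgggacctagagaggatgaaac
Slfn4, chr11:83175086-83175185, + strand: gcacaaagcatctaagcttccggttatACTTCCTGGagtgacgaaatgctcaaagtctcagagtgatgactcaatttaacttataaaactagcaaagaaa
Slfn2, chr11:83065012-83065111, + strand: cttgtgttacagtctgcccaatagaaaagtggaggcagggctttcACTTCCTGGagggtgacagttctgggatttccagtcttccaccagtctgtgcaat
Slfn3, chr11:83191230-83191329, + strand: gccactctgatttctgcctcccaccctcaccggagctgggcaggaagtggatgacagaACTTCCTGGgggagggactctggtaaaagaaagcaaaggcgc

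The shared run began 74, 73, 55 and 42 bases before the start sites of Slfn1, Slfn4, Slfn2 and Slfn3, on the gene's own strand each time. It was searched for because these windows shared it, and 230 of the 32851 windows (0.700%) held it on either strand. Slfn1 and Slfn4 shared 15 bases in a row around it, ACTTCCTGGAGTGAC, a run found in 2 of all windows.

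Across arrays, between 48.2% and 58.6% of probes were well above background in a channel, and no spot was saturated. The hepatocyte genes Alb, Apoa1, Ttr and Hnf4a were above background on every array in both genotypes. Pnpt1 itself had log2 HepKO over WT ratios of 0.31 and 0.058 in the male pair, and in the female pair -0.38 and -0.38 at its brighter probe (adjusted p = 0.747 in limma), and -0.67, -0.32, -0.50 and -0.60 at its dimmer probe. The sources used here do not name the deleted part of Pnpt1, so these probes may not check the genotype. In both genotypes, Xist was detected above background on 2 arrays in the pair labelled male and on 0 in the pair labelled female, while Y-linked Kdm5d, Ddx3y and Eif2s3y showed the opposite. These genes run against the labelled sex of both pairs. The pairs keep their label names here, and each ratio compares mice of 1 pair. Whether the labelled ages are also exchanged was not tested.

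Schlafen transcripts were higher in HepKO than in WT samples on every array for all 7 genes. So were 4534 of the 11495 genes tested, and all of the 1378 genes called higher. With the background model fitted on all spots, 6 of 7 members were higher on every array. In HepKO samples 27 of 28 probe measurements were well above background, against 8 of 28 in WT samples, of which Slfn2 gave 4. Slfn2, Slfn4, Slfn9, Slfn8 and Slfn1 passed an adjusted p of 0.05 as higher, 5 of 7 members, where 12% of the 11495 genes tested passed as higher and 3.71% as lower. Slfn5 and Slfn3 did not pass. None of the members passed with the background model fitted on all spots (limma adjusted p = 0.117 for Slfn2) or with dim probes left in (0.0749 for Slfn2). The fit on all spots takes in the flagged spots that were otherwise left out. The highest green local background of a spot was 41156.5 on female pair replicate 2 and 35.5 to 39.5 on the other arrays. Its part in the lost calls was not tested. The median log2 ratio was 2.38 for the members and 0.083 for all genes tested. All 7 members passed the filter on dim probes, 6 of them only through the HepKO channel, so that a higher level in HepKO was nearly built into their being measured. Of the 1065 genes that passed only through HepKO, 14.2% were called higher, with a median log2 ratio of 0.28. The p-values rest on the spread between 2 pairs (1 residual degree of freedom), moderated by a variance drawn from all genes (3.12 prior degrees of freedom). The number of pairs limits their precision.

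Slfn2, a short member needed for the quiescence and survival of T cells and monocytes in mice, was the only member above background on all arrays of WT. Its net spot signal, which is the mean pixel intensity less the local background and is not yet dye-normalized, was 2187 and 3292 in the HepKO male and 1658 and 1349 in the HepKO female, with HepKO in Cy5 on the first array of each pair and in Cy3 on the other. In WT it was 91.5 and 160.4 in the male and 119.7 and 135 in the female. The genotypes did not overlap. For this and the other members, the share of all probes without such overlap is not given. After normalization its log2 ratios were 4.19 and 3.26 in the male pair, and in the female pair 2.88 and 2.66, with a mean of 3.25 ± 0.28 (moderated SE, n = 2 pairs; limma adjusted p = 0.0148), or 9.49-fold. It was the gene with the 80th highest log2 ratio of the 11495 tested.

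Slfn1, the other short member, which inhibits growth when overexpressed in mouse T cells, was above background in HepKO only. Its net signal was 135 and 211 in the HepKO male and 70.9 and 75.2 in the HepKO female, against 7.18 and 6.85 in the WT male and 8.72 and 6.89 in the WT female, where it was well above background on 0 of 4 arrays. The WT signal therefore gives only a bound under this processing, and Slfn1 was at least 2.29-fold higher in HepKO, averaged over pairs. Such a bound sets the HepKO mean against the WT mean of, on each array, the higher of the lowest well-measured signal and the probe's own. For Slfn1 the probe's own signal was the higher, so the bound equals the measured fold. The log2 ratios were 1.66 and 1.505 in the male pair, and in the female pair 0.76 and 0.85, with a mean of 1.19 ± 0.24 (n = 2 pairs, limma adjusted p = 0.0462). That call lay close to the threshold and was lost without male pair replicate 2 (adjusted p = 0.068) and without female pair replicate 1 (0.0529). With the background model fitted on all spots the mean log2 ratio was 0.998, so the bound holds only for the processing used here.

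**Figure D1:**
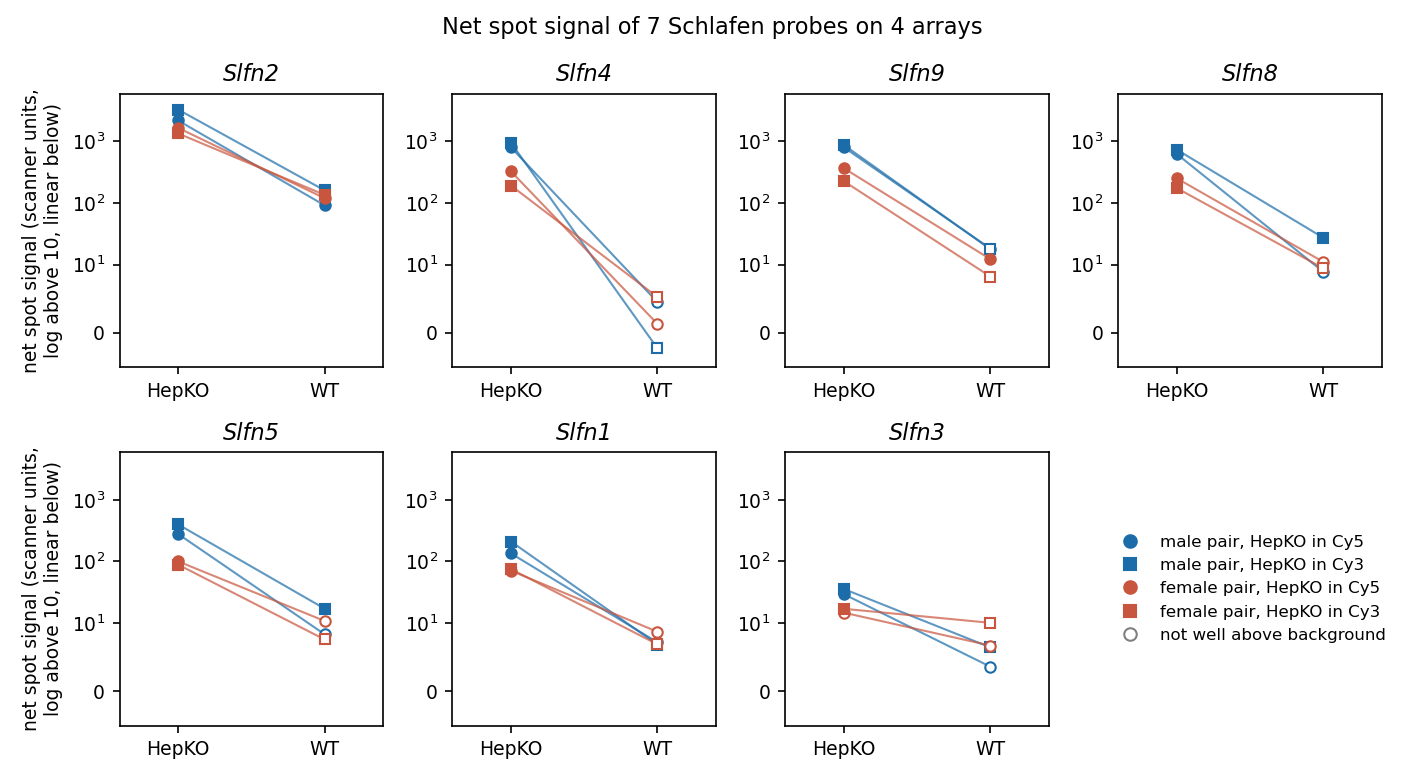
Net spot signal (mean pixel intensity less local background, scanner units; logarithmic above 10 and linear below) of the 7 Schlafen probes in HepKO and WT on the 4 arrays, with a line joining the channels of 1 array and open symbols where a probe was not well above background. Every HepKO point lies above every WT point of the same probe, and only Slfn2 is above background in WT on all 4 arrays. These signals are not dye-normalized, and the share of all probes without overlap is not given.

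Slfn4, an intermediate member that interferon and Toll-like receptor ligands induce in mouse macrophages, had net signals near 0 in WT. It had 798 and 950.2 in the HepKO male and 326 and 192 in the HepKO female, against 4.52 and -2.25 in the WT male and 1.32 and 5.24 in the WT female. WT was not well above background on any of 4 arrays. Under this processing, and averaged over pairs, Slfn4 was at least 7.19-fold higher in HepKO. Its log2 ratios of 3.98 and 3.45 in the male pair, and in the female pair 2.46 and 1.76 averaged 2.91 ± 0.42 (n = 2 pairs, limma adjusted p = 0.027). The call was lost by a narrow margin without female pair replicate 1 (adjusted p = 0.050001). With the background model fitted on all spots the mean log2 ratio was 2.52, so this bound too holds only for the processing used here. On male pair replicate 1 the local background of this spot carried a population outlier flag.

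Slfn3, the other intermediate member, lies next to Slfn4 on the chromosome and did not pass. Its net signal was 29.5 and 35.7 in the HepKO male and 14.8 and 17.0 in the HepKO female, against 3.62 and 6.45 in the WT male and 6.71 and 10.1 in the WT female. The genotypes did not overlap, but the probe was above background on 3 of 4 HepKO arrays and on 0 of 4 WT arrays. The normalized log2 ratio was 0.23 ± 0.16 (n = 2 pairs, limma adjusted p = 0.357) , with 0.50 and 0.29 in the male pair, and in the female pair 0.11 and 0.029. With the scanner software's own log ratios, to which no offset is added, it passed at 2.64 (adjusted p = 0.0344).

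The long members Slfn8 and Slfn9, closely related neighbours, both rose. Slfn9 had net signals of 802 and 876 in the HepKO male and 367 and 226 in the HepKO female, against 18.2 and 17.8 in the WT male and 12.3 and 8.25 in the WT female, where it was above background on 2 of 4 arrays. Slfn8 had 628 and 736 in the HepKO male and 252 and 175 in the HepKO female, against 8.95 and 27.3 in the WT male and 11.1 and 9.47 in the WT female, with 1 of 4 WT arrays above background. Neither probe overlapped between genotypes. The log2 ratios of Slfn9 were 3.70 and 2.90 in the male pair, and in the female pair 2.33 and 1.87, with a mean of 2.70 ± 0.33 (n = 2 pairs, limma adjusted p = 0.0203). Those of Slfn8 were 3.55 and 2.50 in the male pair, and in the female pair 1.92 and 1.57, with a mean of 2.38 ± 0.35 (n = 2 pairs, limma adjusted p = 0.0272). The Slfn8 call was lost without male pair replicate 2 (adjusted p = 0.0503). Probe sequences were not used here, so how far a probe for Slfn8 or Slfn9 also binds the other transcript, or that of the neighbouring Slfn10-ps, was not tested.

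Slfn5, a long member found in the nucleus, had 279.97 and 399.8 in the HepKO male and 100.4 and 89 in the HepKO female, against 8.36 and 17.2 in the WT male and 10.8 and 7.6 in the WT female, with 1 of 4 WT arrays above background. HepKO and WT did not overlap, and the pairs stood apart. Its log2 ratios were 2.49 and 1.96 in the male pair, and in the female pair 1.00 and 0.97. The mean of 1.60 ± 0.34 (n = 2 pairs) missed the threshold narrowly, with a limma adjusted p of 0.0513. Slfn5 passed on leaving out male pair replicate 1 (adjusted p = 0.0266) or female pair replicate 2 (0.0416), and with the scanner software's log ratios (0.0287). The local background of this spot carried a population outlier flag on male pair replicate 2.

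**Figure D2:**
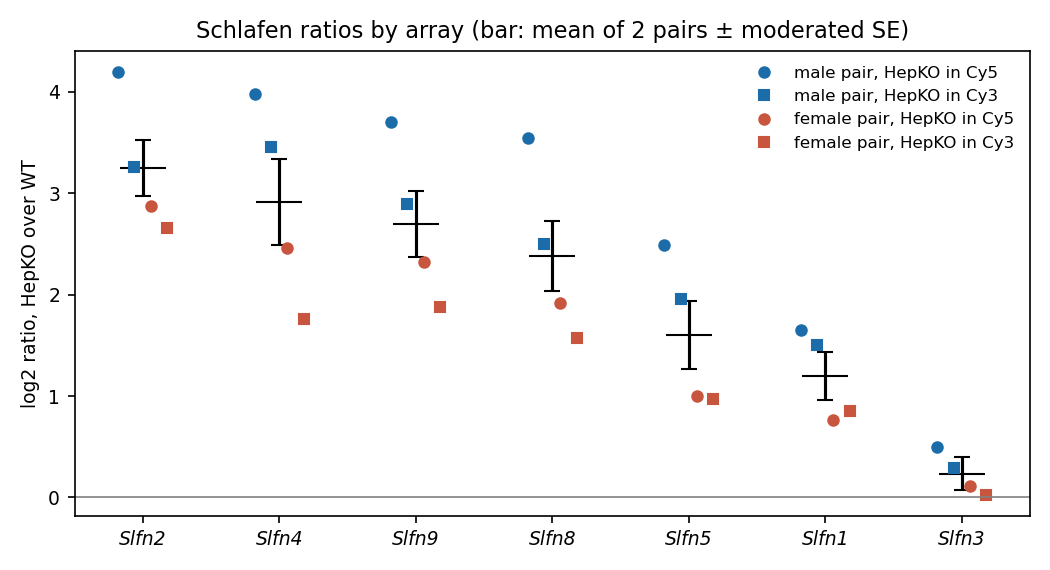
Log2 ratio of HepKO over WT for each Schlafen gene on each array (blue, pair labelled male; red, pair labelled female; circles, HepKO in Cy5; squares, HepKO in Cy3), with the mean of 2 pairs and its moderated SE in black. All values lie above 0, and for every gene both male pair arrays lie above both female pair arrays. The latter held for 28.3% of all genes tested.

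In order of mean log2 ratio the members ran Slfn2, Slfn4, Slfn9, Slfn8, Slfn5, Slfn1 and Slfn3. Slfn2 exceeded Slfn4, and Slfn4 exceeded Slfn9, on 3 of 4 arrays, with differences as small as 0.012 in the male pair and 0.0091 in the female pair. Each later neighbour in the order was lower on 4 of 4 arrays. The order was not kept in every setting: with the scanner software's log ratios Slfn4 had 7.11 and Slfn2 had 3.63, below Slfn1 at 4.26. The probes differ in how far WT lay under background, so differences in ratio between members are descriptions of these probes.

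The male pair had the larger ratio in 7 of 7 members. The median log2 ratio of the members was 3.02 in the male pair and 1.74 in the female pair, and the median difference, male minus female, was 1.20. Over all 11495 genes tested, 47.7% had the larger ratio in the male pair, with a median difference of -0.020. Among the 1378 genes called higher, 70.2% did, with a median difference of 0.24. Among the 39 interferon-stimulated genes measured 37 did, with a median difference of 0.75. In all 7 members the lower male array exceeded the higher female array. So it did for 28.3% of all genes tested, 50.1% of the genes called higher and 28 of the 39 interferon-stimulated genes. With the scanner software's log ratios it did so for 5 of 7 members. The net HepKO signal was higher on both male arrays than on both female arrays for each member. These signals are not normalized between arrays or dyes, and the share of all probes with this order is not given. Each pair is 1 replicate, so the difference between pairs was not tested, and the labelled sex, the age and the arrays of a pair cannot be told apart. The ratio was larger with HepKO in Cy5 in both pairs for 6 of 7 members, Slfn1 being the exception. That was so for 67.5% of the genes called higher and 37.8% of all genes tested.

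In the chromosomal order of the annotation, Slfn5, Slfn9, Slfn8, Slfn10-ps, Slfn2, Slfn1, Slfn4, Slfn3 and Slfn14 follow one another, and no probe was named for Slfn10-ps or Slfn14. Of the 12 protein-coding genes nearest to the cluster, 6 on each side, 9 were measured, 1 was higher and 0 were lower in limma, with a median log2 ratio of 0.28 and a range from -0.33 to 1.24. That count is near the 12% called higher over all genes. The gene called was Unc45b, a myosin chaperone gene next to Slfn5, at 1.24 ± 0.14 (adjusted p = 0.019), with values of 1.16 to 1.302 on the 4 arrays. The related gene Slfnl1, on another chromosome, was above background on 0 of 4 arrays in either genotype and was not tested.

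**Figure D3:**
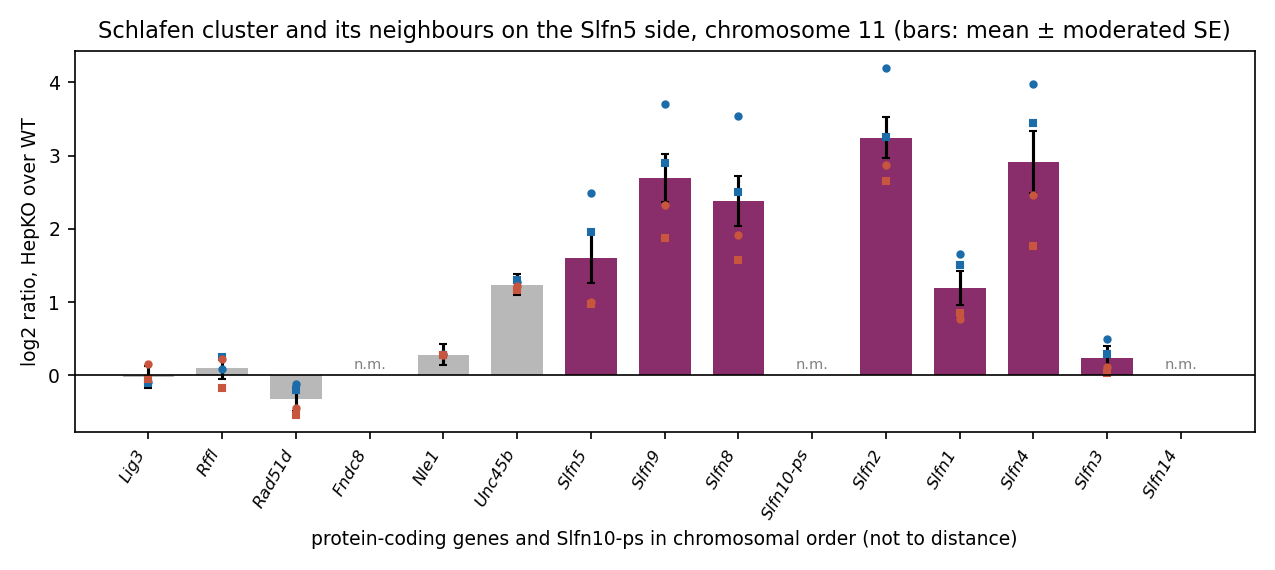
Log2 ratio of HepKO over WT, mean of both pairs ± moderated SE, for the Schlafen genes (purple) and their neighbours on the Slfn5 side (grey) in chromosomal order, with the 4 arrays as points (blue, male pair; red, female pair; circles, HepKO in Cy5; squares, HepKO in Cy3) and n.m. for genes that were not measured. Of the neighbours drawn, Unc45b alone rose, at 1.24.

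Interferon-stimulated genes outside the family moved in the same direction. Of 48 listed, 39 were measured, and 39 rose and 0 fell, with a median log2 ratio of 3.17, 3.61 in the male pair and 2.78 in the female pair. They were led by the antiviral enzyme Rsad2 (6.71 ± 0.42, limma adjusted p = 0.0116). Of 18 genes of interferon signalling, 8 rose and 0 fell, with a median of 0.68. The count was 4 without male pair replicate 2 and 4 without female pair replicate 1, and 5 with the scanner software's log ratios. The transcription factor Irf7 was higher (4.05 ± 0.36, adjusted p = 0.0152), and Stat2 and Irf9, parts of a complex that binds the response element, rose by 1.17 ± 0.22 (adjusted p = 0.0431) and 1.36 ± 0.23 (adjusted p = 0.0348). The receptor chains Ifnar1 (-0.18 ± 0.16) and Ifnar2 (0.17 ± 0.16) did not pass. Of 19 proliferation genes 18 rose and 0 fell, with a median of 2.46.

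Markers of blood-derived cells, in which Schlafen genes are expressed, moved on the same arrays. In bulk samples, more cells of a type and more RNA per cell cannot be told apart. Of 20 macrophage and monocyte markers measured, 16 rose and 0 fell, with a median of 1.71, and their summed normalized intensity was 66238 to 74293 in HepKO and 9962 to 19047 in WT. Of 20 T and NK cell markers 12 rose and 0 fell, with a median of 0.95 and sums of 4275 to 5402 in HepKO and 2493 to 3540 in WT. Of 12 neutrophil markers 4 rose and 0 fell, with a median of 0.97 and sums of 3177 to 5757 in HepKO and 979 to 1392 in WT. Of 5 B cell markers 1 rose and 0 fell, with a median of 0.42 and sums of 537 to 605 in HepKO and 367 to 416 in WT. The Schlafen probes summed to 2599 to 5735 in HepKO and 487 to 831 in WT. All of these sums include the offset of 50 added to each probe's signal. They therefore depend on the number of probes in a list, and the offset weighs most where signals are dim. Cxcr2 (neutrophils), Eomes (NK cells) and Blk, Cd79a and Pax5 (B cells) were not well above background on any array of either genotype. Of 12 endothelial markers 8 rose and 0 fell (median 1.11), and of 10 stellate cell markers 4 rose and 0 fell (median 0.82). Of 13 hepatocyte genes 0 rose and 1, Cyp2e1, fell by 2.38 ± 0.30 (adjusted p = 0.0212), and the median was 0.086, below 0 with median centring of each array. With the scanner software's log ratios the medians were 2.67 for the neutrophil list (10 rose), 2.89 for the T and NK cell list and 1.95 for the B cell list (2 rose). Without male pair replicate 2 the counts were 2 neutrophil, 0 B cell and 2 stellate cell markers, and without female pair replicate 1 the neutrophil count was 2. With median centring 7 stellate cell markers rose. The part of these cell types in the Schlafen values was not tested.

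**Figure D4:**
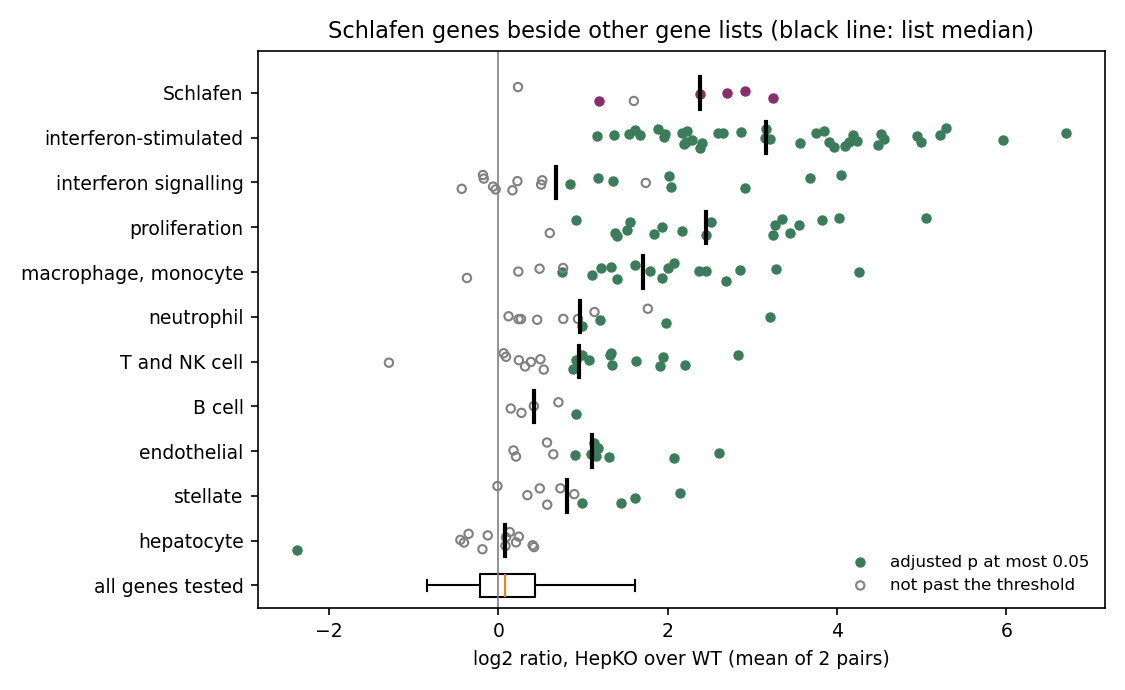
Log2 ratio of HepKO over WT (mean of 2 pairs) of the genes in each list, filled where the adjusted p was at most 0.05, with list medians as black lines and a box plot of all 11495 genes tested (box, quartiles; whiskers, percentiles 5 and 95). List medians are 2.38 for the Schlafen genes, 3.17 for the interferon-stimulated genes and 1.71 for the macrophage and monocyte markers. The order of the first 2 turns with the scanner software's log ratios (4.26 and 3.31) and the authors' value table (4.27 and 3.32). It also turns with a normexp offset of 10 (3.38 and 3.32) and with the strict filter, which left Slfn2 alone (3.25 and 3.17).

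The genes whose 4 array ratios lay closest to each member, by root mean square difference over the 4 arrays, are given as a description. Slfn1 was closest to Stat2 (0.052), then to Slc6a6 and Nup98. Slfn2 was closest to the leukocyte actin regulator Coro1a (0.114), then to Lgals3bp and the interferon-induced GTPase Gbp2. Slfn4 was closest to the interferon-induced exonuclease Isg20 (0.117), then to the Fc receptor chain Fcer1g and the phagocyte oxidase subunit Ncf4. Slfn9 had Car13 (0.104) and Napsa (0.115) among its closest genes, and Slfn8 was closest to Klf6 (0.122), then to H4c14 and Tmem229b. Slfn5 was closest to Adap1 (0.0773), then to Bex1 and Gadd45b. Slfn3, which did not pass, was closest to Rpl35 (0.0245), Blcap and Plekhf2, all near 0.

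The size of the Schlafen ratios changed between processing settings, while the sign of each mean did not. With the scanner software's log ratios 7 of 7 members passed and their median was 4.26, where 13.9% of all genes passed as higher. With a normexp offset of 10 in place of 50 the members' median was 3.38. Then 6 of 7 members passed, where 15.1% of all genes passed as higher. The calls ended, with the means above 0 in each case, when the background model was estimated on all spots or when dim probes were not filtered. In these settings 0 of 7 members and 0 genes in all passed in limma. In each, 6 of 7 members had an unadjusted limma p of at most 0.05. So had 3021 of 11495 genes in the first setting and 4638 of 16339 in the second.

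**Figure D5:**
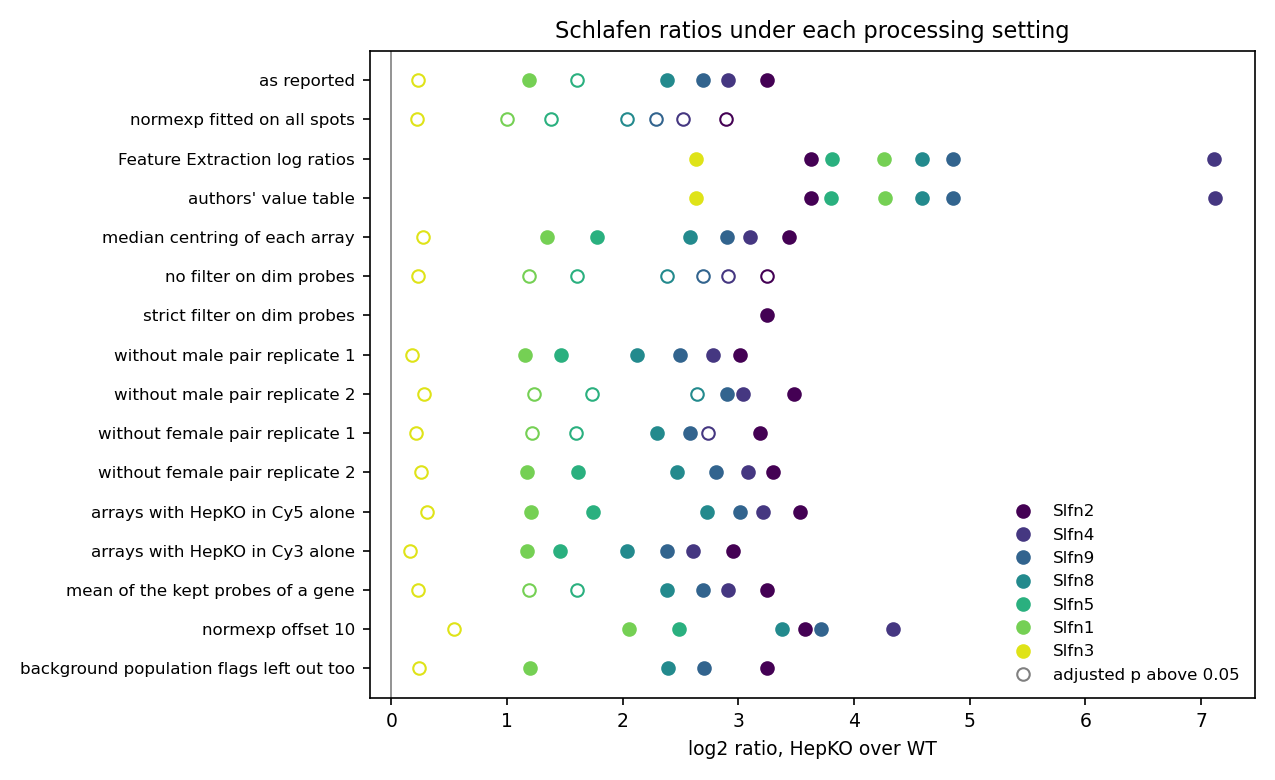
Log2 ratio of HepKO over WT of each Schlafen gene under each processing setting, filled where the limma adjusted p was at most 0.05. All values lie above 0, and the scanner software's log ratios and the authors' value table give the largest, up to 7.11 and 7.12 for Slfn4.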

How the data were processed

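RNA of 2 HepKO and WT mouse pairs was compared on 4 two-colour Agilent arrays, the dyes exchanged between the arrays of a pair. Per the file headers, images were quantified by Agilent Feature Extraction 10.2.1.3. The deposited intensity values used were each spot's mean signal and its local background median in green and red. The software also wrote deposited log10 ratios (red over green) after its background subtraction and dye normalization. How the authors made their value table is not stated in the labels or headers; it correlated at 1 or -1 with them over 43379 spots per array. Its sign was opposite on arrays where Cy3 held HepKO, so its direction is HepKO over WT, and its column medians were 0.

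Signals were corrected with normexp (offset 50) and loess within arrays in limma 3.58.1 (R 4.3.3). Control spots had weight 0, and 178 to 260 spots per array with spot outlier or background non-uniformity flags were left out before the normexp fit. Ratios were turned to HepKO over WT and averaged over spots and then over the 2 arrays of a pair, which share RNA extracts, so n = 2 pairs. Kept probes were well above background on both arrays of a pair in at least 1 genotype (22844 of 41174). RefSeq accessions named 22951 probes through an annotation of GRCm38.p6, used only for names, gene order and promoter sequences, because the headers give an older build. The brightest kept probe measured on all 4 arrays stood for a gene. The test was limma's moderated test with an intercept, Benjamini-Hochberg adjusted over 11495 genes. Levels per channel used loess and Aquantile scaling. The fit was also run on data simulated from its own variance model, which cannot show whether that model holds for these arrays.

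Members, gene lists and tests were chosen with earlier results of these data known. Named genes were the members and other annotated Schlafen genes, the 3 genes most alike to each member, and at most 3 called genes per list, with undetected markers; some results that this rule names, and another promoter motif that was searched, are not reported here. The neighbouring genes, Stat2, Irf9, Ifnar1 and Ifnar2, and the shared promoter run, were picked after values or sequences were seen. Alternatives covered the background fit, offset, normalization, filters, value source, dyes, single arrays and the probe rule.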

Additional observations from a re-analysis of the deposited data

How the results depend on the processing

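The main test was itself paired, since every log2 ratio sets a HepKO mouse against its own WT match. Replicate numbers name arrays of opposite dye, not animals, so they gave no further pairing. Over 15 alternatives all members tested kept a mean ratio above 0, and 1 alternative, leaving out spots with a background population flag, was chosen after seeing the data. It removed Slfn4 and Slfn5 and left 4 of 5 members called, where 11.5% of the 10560 genes tested were called higher. With normexp fitted on all spots, and without the filter on dim probes, 0 genes were higher, 0 lower and 0 Schlafen genes passed in limma, with 3021 and 4638 genes at an unadjusted p of at most 0.05. The smallest adjusted p was 0.0707 and 0.0689. The strict filter left 1 member to test, Slfn2, and 1 call. The Schlafen median moved to 4.26 with the Feature Extraction log ratios, to 4.27 with the authors' value table and to 3.38 with offset 10. Leaving out each array in turn gave 3 to 6 called members (3 without male pair replicate 2 or female pair replicate 1), medians of 2.12 to 2.64, 920 to 1572 genes higher and 202 to 572 lower. Arrays with HepKO in Cy3 alone gave 683 genes lower, against 427. Slfn1 had an adjusted p of 0.0517 with the mean of a gene's probes. The hepatocyte median turned below 0 with median centring (-0.47), on leaving out male pair replicate 1 (-0.033) or female pair replicate 1 (-0.021; 0.106 at most, on leaving out male pair replicate 2) and with HepKO in Cy3 alone (-0.22). Except where a setting removed probes, the cause of these moves was not tested. Dim WT signals limit the ratios: 3 members were above background on no WT array.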
